A study of Mus musculus with 6 samples.

Results

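The subject is a group of 9 germ line microRNA genes on the mouse X chromosome, Mir741, Mir871, Mir470, Mir880, Mir465c, Mir743, Mir881, Mir878 and Mir463, in cultured spermatogonial stem cells. Reads of 18 to 26 nt were assigned to them when they matched a GENCODE M21 microRNA gene exactly and in sense, with the copy suffix of the name dropped. The 9 names were among 1233 microRNA gene names with reads. In untreated wild type cells they held 677627 reads, or 48.8% of all microRNA reads.

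A microRNA is cut from a hairpin, leaving a 5p and a 3p arm, of which 1 usually enters an Argonaute protein and guides it to messenger RNAs through the seed, bases 2 to 8. The X chromosome cluster is known in mouse for expression in testis and germ cells and for fast sequence change between species. Mammalian microRNAs usually end in a ribose with free 2′ and 3′ hydroxyls, which sodium periodate (NaIO4) oxidises, so that the RNA is not ligated into a library. Hen1 methylates the 2′ hydroxyl of piRNAs, which are bound by Piwi proteins such as MILI and resist NaIO4.

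The study sequenced small RNAs with 1 library per group, to see which of them depend on Hen1 or Mili and which carry a modified 3′ end. The 6 libraries came from Hen1 knockout (mhen1-/-) cells treated with NaIO4, untreated Hen1 knockout cells, wild type cells with NaIO4, untreated Mili knockout (mili-/-) cells, a MILI immunoprecipitate from wild type cells, and untreated wild type cells. The labels give the strain as C57BL/6. They trace the culture to an F1 male of C57BL/6 and DBA2, 15 days old, with an actin-EGFP transgene, so every group shared these. The cells grew on embryonic fibroblast feeders, and each knockout came from Cas9 transfection with colonies picked singly, so each may represent 1 clone. NaIO4 was added from a 200 mM stock. The labels name an anti-MILI antibody for the immunoprecipitate, and no control precipitate was analysed here.

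Since each group was a single library, differences lack a replicate check, and what is compared is libraries rather than conditions, without p-values. Intervals are 95% limits, exact for levels and shares and, for ratios, computed from the reads as log values. PCR reads carry no molecular identifiers here and are no independent molecules, so intervals describe counting error alone. Small RNA counts do not measure the Hen1 or Mili transcript, so the knockouts were not checked. Both knockouts and the immunoprecipitate were set against the same untreated wild type library. Fewer cells of a type and less RNA per cell cannot be told apart in such bulk samples.

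Library totals ran between 2833286 and 26292082 reads, and reads of 18 to 35 nt between 2604390 and 25240941. MicroRNA reads numbered 60916 in NaIO4-treated Hen1 knockout cells, 841179 in untreated Hen1 knockout cells, 134616 in wild type with NaIO4, 1620004 in the Mili knockout, 186865 in the MILI immunoprecipitate and 1388561 in untreated wild type. They made up 2.34% in NaIO4-treated Hen1 knockout cells, 7.19% in untreated Hen1 knockout cells, 1.31% in wild type with NaIO4, 33.7% in the Mili knockout, 0.740% in the immunoprecipitate and 19.0% in untreated wild type of the reads of 18 to 35 nt. Predicted entries without a Mir name took 8.59% in NaIO4-treated Hen1 knockout cells, 2.25% in untreated Hen1 knockout cells, 12.4% in wild type with NaIO4, 0.227% in the Mili knockout, 22.8% in the immunoprecipitate and 0.942% in untreated wild type of the microRNA reads. Such entries were therefore commonest in the immunoprecipitate and the NaIO4 libraries. Levels below are reads per 1000000 microRNA reads (RPM) unless another scale is named.

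The mature RefSeq sequences of the arms that carried most reads are printed here, since the seed guides targeting, with the seed in capitals (build GRCm38.p6, minus strand of chromosome X).
mmu-miR-741-3p: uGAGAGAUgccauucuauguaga
mmu-miR-871-3p: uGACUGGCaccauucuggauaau
mmu-miR-470-5p: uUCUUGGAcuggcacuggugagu
mmu-miR-880-3p: uACUCCAUccucucugaguaga
mmu-miR-465c-5p: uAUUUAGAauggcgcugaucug
mmu-miR-465c-3p: gAUCAGGGccuuucuaaguaga
mmu-miR-743a-3p: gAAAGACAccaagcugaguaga
mmu-miR-881-3p: aACUGUGUcuuuucugaauaga
mmu-miR-878-3p: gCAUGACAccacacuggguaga
mmu-miR-463-5p: uACCUAAUuuguuguccaucau
mmu-miR-463-3p: uGAUAGACaccauauaagguag

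No seed is repeated among these 11 sequences. Outside them, miR-465c-5p shares its seed with miR-465a-5p, miR-465b-5p and miR-465d-5p, miR-465c-3p with miR-465a-3p and miR-465b-3p, and miR-743a-3p with miR-743b-3p. For miR-741-3p, miR-871-3p, miR-470-5p, miR-880-3p, miR-881-3p, miR-878-3p and both miR-463 arms, no other mature sequence in the RefSeq table had the same seed. Among the minor arms, miR-871-5p and miR-743a-5p share a seed with each other.

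The 10 annotated entries, with 2 for Mir465c, lie on the minus strand at chrX:66776757-66832597 (GRCm38, the assembly of mm10). The stretch of 55841 bp holds 17 microRNA entries in all. None of the 10 entries overlaps another gene, and the nearest coding genes are Slitrk2 at 115364 bp and Gm1140 at 850303 bp. Mir463, Mir880, Mir878 and Mir881 lie closest together, at chrX:66799223-66802021. The hairpins of the 2 Mir465c copies are identical, so their reads cannot be divided.

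Mir741 and Mir871 gave the most reads of any microRNA gene in untreated wild type cells. Mir741 stood at 136516 RPM in NaIO4-treated Hen1 knockout cells, 159751 in untreated Hen1 knockout cells, 116435 in wild type with NaIO4, 172993 in the Mili knockout, 77361 in the immunoprecipitate and 168477 in untreated wild type. Mir871 reached 133183 RPM in NaIO4-treated Hen1 knockout cells, 139177 in untreated Hen1 knockout cells, 117505 in wild type with NaIO4, 159929 in the Mili knockout, 112637 in the immunoprecipitate and 157159 in untreated wild type. In the immunoprecipitate Mir871 passed Mir741, and in both NaIO4 libraries the intervals of the pair overlapped. Of the summed reads in untreated wild type, Mir741 held 34.5%, Mir871 32.2% and Mir470 13.0%.

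Mir470, the only member read almost wholly from its 5p arm, had 44602 RPM in NaIO4-treated Hen1 knockout cells, 57501 in untreated Hen1 knockout cells, 44319 in wild type with NaIO4, 62797 in the Mili knockout, 27517 in the immunoprecipitate and 63291 in untreated wild type. The level of Mir880 was 5647 RPM in NaIO4-treated Hen1 knockout cells, 29775 in untreated Hen1 knockout cells, 8216 in wild type with NaIO4, 39970 in the Mili knockout, 7797 in the immunoprecipitate and 40552 in untreated wild type. Both NaIO4 libraries and the immunoprecipitate lay far below the 3 untreated total RNA libraries. Mir465c had 44011 RPM in NaIO4-treated Hen1 knockout cells, 42089 in untreated Hen1 knockout cells, 40961 in wild type with NaIO4, 39257 in the Mili knockout, 23129 in the immunoprecipitate and 33618 in untreated wild type. Only the immunoprecipitate lay below untreated wild type. Most Mir465c reads in each library came from the 3p arm, and nearly all of those also match Mir465 or Mir465b.

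The other 4 genes were less abundant. Mir743 had 12197 RPM in NaIO4-treated Hen1 knockout cells, 12800 in untreated Hen1 knockout cells, 8112 in wild type with NaIO4, 9818 in the Mili knockout, 4206 in the immunoprecipitate and 9739 in untreated wild type. Mir881 gave 11114 RPM in NaIO4-treated Hen1 knockout cells, 7329 in untreated Hen1 knockout cells, 10311 in wild type with NaIO4, 6107 in the Mili knockout, 2504 in the immunoprecipitate and 7277 in untreated wild type, and was highest in both NaIO4 libraries. For Mir878 the level was 5581 RPM in NaIO4-treated Hen1 knockout cells, 6691 in untreated Hen1 knockout cells, 5720 in wild type with NaIO4, 7022 in the Mili knockout, 5689 in the immunoprecipitate and 6587 in untreated wild type, the narrowest range of the 9 genes in relation to its level. Mir463, the least abundant member, had 1789 RPM in NaIO4-treated Hen1 knockout cells, 1289 in untreated Hen1 knockout cells, 1909 in wild type with NaIO4, 1243 in the Mili knockout, 514 in the immunoprecipitate and 1306 in untreated wild type. These rest on 109 reads in NaIO4-treated Hen1 knockout cells, 1084 in untreated Hen1 knockout cells, 257 in wild type with NaIO4, 2013 in the Mili knockout, 96 in the immunoprecipitate and 1814 in untreated wild type.

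In untreated wild type the order was Mir741, Mir871, Mir470, Mir880, Mir465c, Mir743, Mir881, Mir878 and Mir463, and no neighbours had overlapping counting intervals. In the untreated Hen1 knockout Mir465c stood above Mir880. Of the 35404 Mir465c reads there, 25188 were 3p reads, all of which also match Mir465 or Mir465b. The 5p arm of Mir465c, which matched no other gene name, had 10216 reads, against 25046 for Mir880. In the Mili knockout Mir878 stood above Mir881, and the order was otherwise that of wild type. With NaIO4 Mir880 dropped among the lesser members, where its interval overlapped that of Mir743 in wild type and that of Mir878 in the Hen1 knockout.

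**Figure D1:**
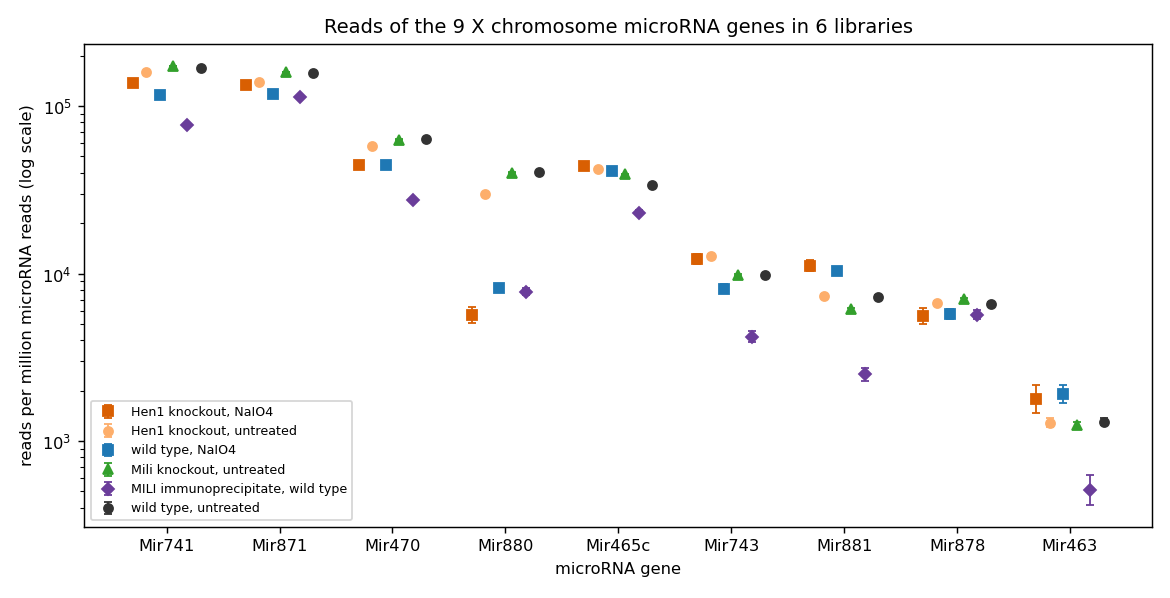
Level in RPM, per 1000000 microRNA reads (log scale) of each of the 9 genes in the 6 libraries, 1 point per library, with exact Poisson 95% intervals that cover counting error only. Mir880 lies at 5647 and 8216 in the NaIO4 libraries and 7797 in the immunoprecipitate, against 29775 to 40552 in the other 3 libraries.

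Most members were read from 1 arm. In untreated wild type the 3p arm gave 99.8% of the reads of Mir741, 97.8% of Mir871, 95.1% of Mir743, 88.1% of Mir881 and 82.9% of Mir878. Mir880-5p had 0 reads in 5 libraries and 8 reads in the Mili knockout. The exact upper limit for Mir880-5p was 2.66 RPM in untreated wild type, where 3 reads stand for 2.16 RPM. In NaIO4-treated Hen1 knockout cells the limit was 60.6 RPM. The 5p arm gave 99.5% of Mir470 reads. Mir463 was read about evenly, with 890 reads from 5p and 924 from 3p.

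The 5p share was higher with NaIO4 in several of these genes. For Mir465c it was 43.1% in NaIO4-treated Hen1 knockout cells, against 28.9% in untreated ones, and 46.3% in wild type with NaIO4, against 30.2% in untreated wild type. For Mir878 it was 27.6% with NaIO4 and 14.3% untreated in the Hen1 knockout, and 30.6% with NaIO4 and 17.1% untreated in wild type. Mir871-5p made up 5.25% of its gene with NaIO4 and 2.81% untreated in the Hen1 knockout, and 5.04% with NaIO4 and 2.22% untreated in wild type. The intervals of each of these pairs did not overlap. Nearly all Mir465c-3p reads also match Mir465 or Mir465b, so the 5p share of Mir465c sets unshared reads against shared ones. For Mir463 the 5p share was 74.3% with NaIO4, from only 109 reads, and 50.7% untreated in the Hen1 knockout. It was 56.4% with NaIO4 and 49.1% untreated in wild type, where the intervals overlapped. Mir881 went the other way, with a 5p share of 8.86% with NaIO4 and 9.51% untreated in the Hen1 knockout, where the intervals overlapped, and 8.07% with NaIO4 and 11.9% untreated in wild type, where they did not. Mir741, Mir470 and Mir880 stayed within 1 arm for at least 98.8% of their reads in every library. In the immunoprecipitate the 5p share of Mir743 was 14.2%, against 4.90% in untreated wild type.

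**Figure D2:**
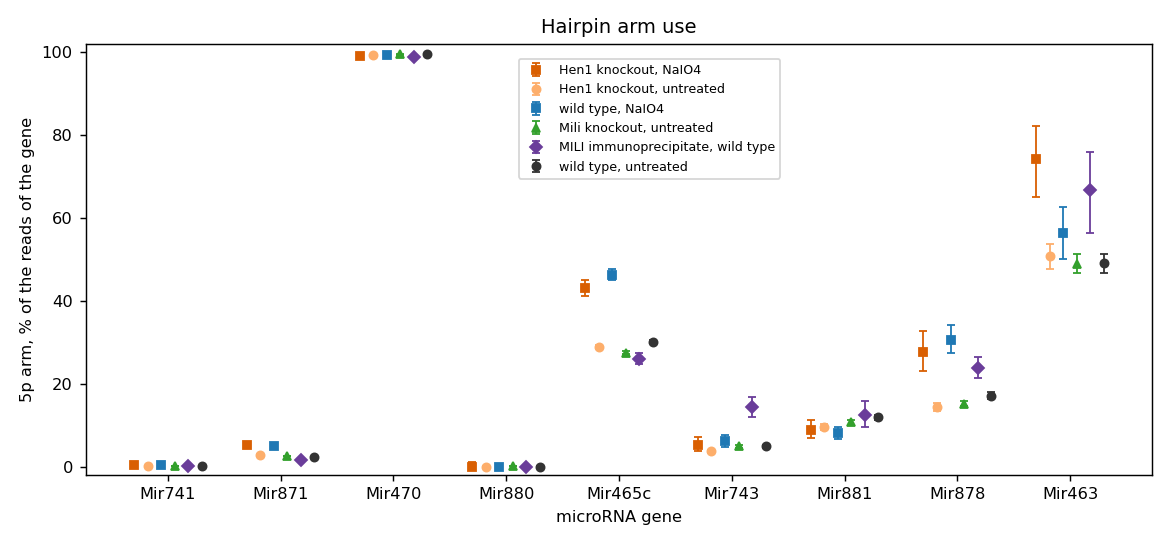
Share of each gene's reads from its 5p arm (%), 1 point per library with exact binomial 95% intervals. In both genotypes the NaIO4 points of Mir465c and Mir878 lie above the untreated ones (46.3% against 30.2% for Mir465c in wild type). Nearly all 3p reads of Mir465c also match other gene names.

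The 5′ end sets the seed, and several of the 3p arms began at more than 1 base. Shifted forms that were common in untreated wild type are printed below as read, in DNA letters, with the shifted seed in capitals and the first base counted from the RefSeq start. They are shown because each carries a seed that differs from that of the RefSeq form.
Mir741-3p start +2: aGAGATGCcattctatgtaga
Mir871-3p start +2: aCTGGCACcattctggataat
Mir465c-3p start -1: tGATCAGGgcctttctaagtaga
Mir743-3p start +1: aAAGACACcaagctgagtaga
Mir881-5p start -4: tATTCAGAgagataacagtcac

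Starts 2 nt downstream made up 17.1% of Mir741-3p reads in NaIO4-treated Hen1 knockout cells, 16.1% in untreated Hen1 knockout cells, 18.9% in wild type with NaIO4, 16.7% in the Mili knockout, 9.42% in the MILI immunoprecipitate and 17.5% in untreated wild type. For Mir871-3p the same shift made up 3.99% in NaIO4-treated Hen1 knockout cells, 4.82% in untreated Hen1 knockout cells, 4.69% in wild type with NaIO4, 4.84% in the Mili knockout, 0.980% in the immunoprecipitate and 5.04% in untreated wild type. The immunoprecipitate had the lowest share of this start in both arms, outside the intervals of the other libraries. Its part in the lower total of Mir741 was not tested.

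Mir465c-3p began 1 nt upstream in 36.3% of reads in untreated wild type, and between 35.3% and 37.5% in the other 5 libraries. Its reads also match other gene names, Mir465 or Mir465b, in 100% of cases in 5 libraries and in 99.98% in untreated wild type, so the 3p arm cannot be credited to Mir465c alone, while the 5p arm matched no other gene name. The shifted form carries the seed of miR-465d-3p. Mir743-3p began 1 nt downstream in 24.3% to 31.0% of reads over the 6 libraries. Mir470-5p and Mir880-3p were precise, with 99.9% and 99.4% at the RefSeq start in untreated wild type.

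Mir881-5p departed from its RefSeq entry. In untreated wild type 99.1% of its 1202 reads began 4 nt upstream of the RefSeq start, and in the other libraries 92.0% to 100%. That form has the seed of miR-743a-5p and miR-871-5p, which the RefSeq form lacks.

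In the NaIO4 libraries the 9 genes were lower together with the other microRNAs, and when summed somewhat lower than these. Per read of 18 to 35 nt, the summed members were 3.55-fold lower with NaIO4 in the Hen1 knockout (3.51 to 3.60) and 20.0-fold lower in wild type (19.8 to 20.2). Mir-named reads outside the X cluster were 3.17-fold lower in the Hen1 knockout and 14.4-fold lower in wild type. On this scale a ratio also depends on what else was left in the library. Per microRNA read the summed ratio was 0.865 in the Hen1 knockout (0.853 to 0.876) and 0.724 in wild type (0.718 to 0.731), and the ratio of these ratios was 1.19 (1.17 to 1.21). Per read of 18 to 35 nt, the Hen1 knockout ratio over the wild type ratio was 5.63.

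Mir880 had by far the lowest NaIO4 ratio of the members in both genotypes. It had 344 reads in the Hen1 knockout with NaIO4, against 25046 untreated, a ratio of 0.190 per microRNA read (0.171 to 0.211). In wild type it had 1106 reads with NaIO4, against 56309 untreated, a ratio of 0.203 (0.191 to 0.215). Per read of 18 to 35 nt this was 16.2-fold lower in the Hen1 knockout and 71.5-fold lower in wild type. Among Mir-named genes with 200 reads or more in the pair of libraries, only Mir346 of 171 was lower in the Hen1 knockout, at 0.133, and only Mir543 of 185 in wild type, at 0.172.

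Mir881 and Mir463 held up best, with ratios per microRNA read of 1.52 for Mir881 and 1.39 for Mir463 in the Hen1 knockout, and 1.42 for Mir881 and 1.46 for Mir463 in wild type. Mir465c stood at 1.05 in the Hen1 knockout and 1.22 in wild type. The most abundant genes were below 1, with Mir741 at 0.855 in the Hen1 knockout and 0.691 in wild type, Mir871 at 0.957 in the Hen1 knockout and 0.748 in wild type, and Mir470 at 0.776 in the Hen1 knockout and 0.700 in wild type. Mir743 had 0.954 in the Hen1 knockout and 0.833 in wild type, and Mir878 had 0.835 in the Hen1 knockout and 0.869 in wild type. The summed microRNAs of a fibroblast list (Mir199a, Mir143 and others) stood at 28006 RPM with NaIO4 and 25741 untreated in the Hen1 knockout, and at 9769 with NaIO4 and 10116 untreated in wild type. Those of the undifferentiated spermatogonia list stood at 68734 RPM with NaIO4 and 74563 untreated in the Hen1 knockout, and at 74880 with NaIO4 and 99971 untreated in wild type. Within this list, Mir183, Mir96 and Mir222 were lower and Mir21a and Mir221 higher with NaIO4, per microRNA read in both genotypes. The part of either list in these ratios was not tested. The order of the members was much alike in the 2 genotypes, which share no library in this comparison. The ratio of ratios per microRNA read lay between 0.858 for Mir465c (0.818 to 0.901) and 1.28 for Mir871 (1.24 to 1.32). For Mir880, Mir881, Mir878 and Mir463 its interval included 1.

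Past 2-fold, 1 of the 9 members (Mir880) was lower with NaIO4 in the Hen1 knockout and none was higher, where 3.98% of all microRNA genes were lower and 33.2% higher. In wild type 1 of 9 (Mir880) was lower and none higher, against 3.83% lower and 55.6% higher over all genes. When reads were limited to those that match 1 gene name, which leaves Mir465c its 5p arm almost alone, Mir465c stood at 1.67 in the Hen1 knockout and at 2.20 in wild type, so that 1 member was past 2-fold higher there. The share of all genes past 2-fold was not counted with such reads. Per read of all microRNAs, Mir465c-5p had 1.56 in the Hen1 knockout and 1.87 in wild type, and Mir465c-3p had 0.837 in the Hen1 knockout and 0.937 in wild type. Most of the higher genes were predicted entries, and among Mir-named genes 8.77% were lower and 4.68% higher in the Hen1 knockout, and 7.57% lower and 8.65% higher in wild type. The median ratio of the members was 0.954 in the Hen1 knockout and 0.833 in wild type, while that of Mir-named genes was 0.981 in the Hen1 knockout and 0.970 in wild type, and that of all microRNA genes 1.498 in the Hen1 knockout and 8.70 in wild type.

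**Figure D3:**
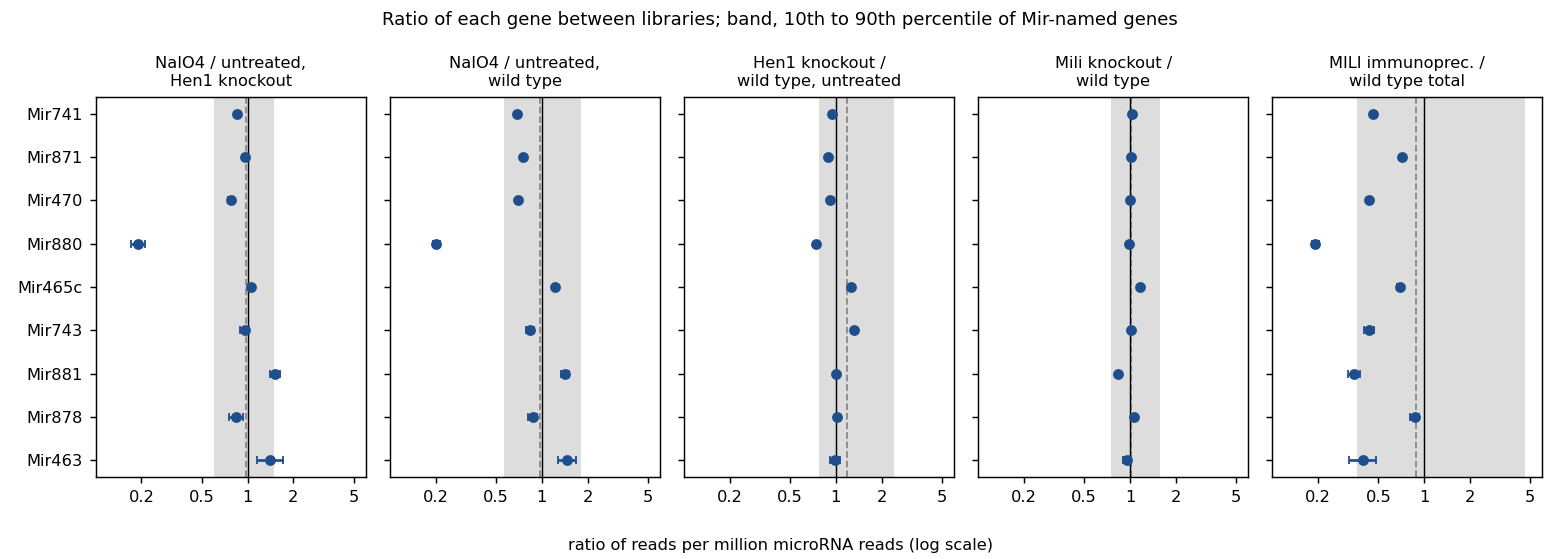
Ratio of each gene between libraries, in RPM (log scale), with 95% intervals from read counts, in 5 panels. The grey band spans the 10th to the 90th percentile of Mir-named genes, the dashed line is their median and the solid line marks 1. Mir880 lies outside the band in both NaIO4 panels (0.190 and 0.203), the untreated Hen1 knockout panel (0.734) and the immunoprecipitate panel (0.192). Mir881 lies outside it in the Hen1 knockout NaIO4 panel (1.52) and the immunoprecipitate panel (0.344).

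Within an arm, shortened 3′ ends made up a larger share of the reads left after NaIO4, in both genotypes. A short end lay 2 nt or more before the commonest end of the arm in untreated wild type, and each arm had to hold 50 reads in each library. The share was higher with NaIO4 in 13 of 13 member arms in the Hen1 knockout, against 108 of 120 Mir-named arms. In wild type it was higher in 16 of 16, against 141 of 158. It was at least 2-fold higher in 11 of 13 in the Hen1 knockout, against 64.2% of Mir-named arms, and in 11 of 16 in wild type, against 66.5%. None was 2-fold lower, against 4.17% of Mir-named arms in the Hen1 knockout and 5.70% in wild type. Over the arms of all entries, predicted ones included, 135 of 314 in the Hen1 knockout and 111 of 356 in wild type were at least 2-fold higher. The members' median share ratio was 3.39 in the Hen1 knockout and 3.33 in wild type, while that of Mir-named arms was 2.49 in the Hen1 knockout and 2.90 in wild type. The shift was thus near that of Mir-named arms in general. With ends only 1 nt short also counted, 1 of 13 arms in the Hen1 knockout and 3 of 16 in wild type were at least 2-fold higher. Among Mir-named arms 30 of 120 in the Hen1 knockout and 42 of 158 in wild type were.

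Mir465c-5p showed it with many reads. Short ends made up 39.5% of its reads in NaIO4-treated Hen1 knockout cells, against 7.01% in untreated ones, and 44.7% in wild type with NaIO4, against 8.65% in untreated wild type. For Mir881-3p the shares were 16.7% with NaIO4 and 2.15% untreated in the Hen1 knockout, and 21.8% with NaIO4 and 3.91% untreated in wild type. Mir743-3p had 6.11% with NaIO4 and 0.810% untreated in the Hen1 knockout, and 8.09% with NaIO4 and 1.63% untreated in wild type. In the abundant Mir741-3p they were rare throughout, at 1.58% with NaIO4 and 0.307% untreated in the Hen1 knockout, and 1.57% with NaIO4 and 0.363% untreated in wild type. Mir871-3p moved less, with 17.4% with NaIO4 and 9.32% untreated in the Hen1 knockout, and 17.99% with NaIO4 and 9.62% untreated in wild type. In none of these 5 arms did the intervals of a pair overlap.

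**Figure D4:**
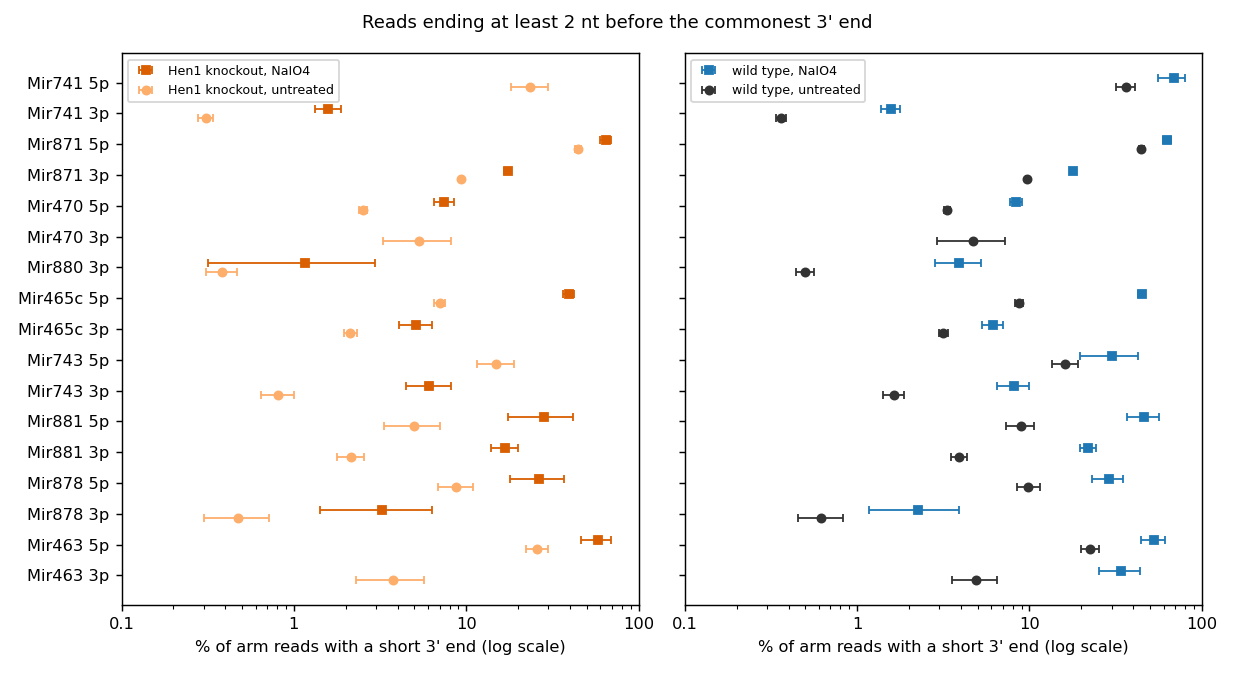
Share of each arm's reads that end at least 2 nt before the commonest 3′ end (%, log scale), with exact binomial 95% intervals, in the Hen1 knockout (left) and wild type (right), NaIO4 drawn above untreated. Arms with under 50 reads or with no short read in a library are not drawn. Mir465c 5p stands at 39.5% against 7.01% in the Hen1 knockout and 44.7% against 8.65% in wild type.

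The ratio for each end form shows the same in another way. Mir465c-5p reads ending at the RefSeq end numbered 304 with NaIO4 and 4782 untreated in the Hen1 knockout, and 520 with NaIO4 and 5812 untreated in wild type. Those ending 2 nt earlier numbered 350 with NaIO4 and 654 untreated in the Hen1 knockout, and 893 with NaIO4 and 1045 untreated in wild type. Per read of 18 to 35 nt the ratio was therefore 0.286 for the full form and 2.41 for the short form in the Hen1 knockout, and 0.0638 for the full form and 0.609 for the short form in wild type. On this scale the short form was above its untreated level in the Hen1 knockout and below it in wild type. All microRNA reads had ratios of 0.325 in the Hen1 knockout and 0.0690 in wild type on that scale. In both genotypes the ratio of the short form was far above that of all microRNA reads and that of the full form.

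In Mir871-3p the ratio differed sharply between neighbouring ends. Forms ending 3 nt early had a ratio of 0.370 in the Hen1 knockout and 0.0565 in wild type, near those of the full form, 0.275 in the Hen1 knockout and 0.0452 in wild type. Forms ending 4 nt early had 2.40 in the Hen1 knockout and 0.364 in wild type, and those ending 5 nt early had 3.90 in the Hen1 knockout and 0.638 in wild type. Mir741-3p forms ending 2 nt early had 1.61 in the Hen1 knockout (1.26 to 2.05) and 0.221 in wild type (0.185 to 0.264), while the full form had 0.272 in the Hen1 knockout and 0.0462 in wild type. For Mir880-3p even the full form, which held nearly all its reads, had 0.0615 in the Hen1 knockout and 0.0135 in wild type. Mir878-3p went the other way at its 1 nt shorter end, with 0.173 against 0.258 for the full form in the Hen1 knockout and 0.0315 against 0.0665 in wild type.

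**Figure D5:**
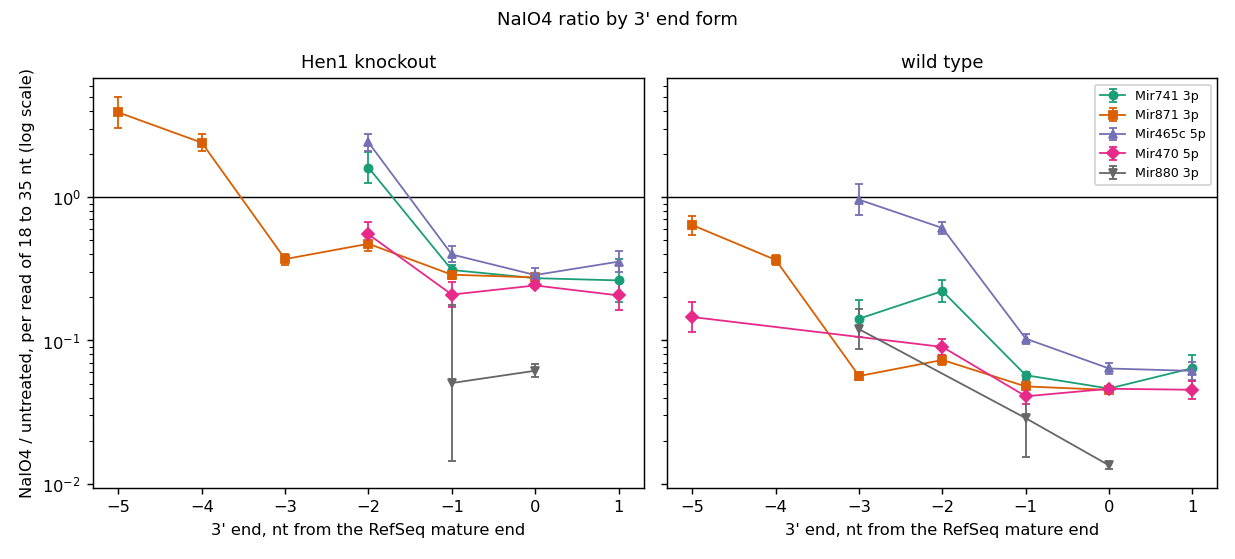
NaIO4 over untreated ratio per read of 18 to 35 nt (log scale) against the 3′ end of the read in nt from the RefSeq mature end, for 5 arms in the Hen1 knockout (left) and wild type (right), with 95% intervals from read counts. Forms ending 2 nt or more early lie above the full-length forms in each arm where both are drawn (Mir465c 5p in wild type, 0.609 against 0.0638).

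Without NaIO4, loss of Hen1 went with small differences in these genes per microRNA read. The summed members held 45.6% of the microRNA reads in the Hen1 knockout and 48.8% in wild type, a ratio of 0.935 (0.932 to 0.939). None of the 9 was past 2-fold in either direction, where 39.1% of all microRNA genes were higher and 0.463% lower, and among Mir-named genes 16.6% higher and 0.948% lower. Mir743 and Mir465c were the highest at 1.31 (1.28 to 1.35) and 1.25 (1.23 to 1.27), and Mir880 the lowest at 0.734 (0.723 to 0.745). The other 6 lay between 0.886 and 1.02. The members' median was 0.987, against 1.18 for Mir-named genes.

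Per read of 18 to 35 nt the summed members had a Hen1 knockout over wild type ratio of 0.354, and all microRNA reads 0.379. Beside these values, reads of the fibroblast list (Mir199a, Mir199b, Mir214, Mir143 and Mir145a, with Mir145b at 0) numbered 25741 RPM in the untreated Hen1 knockout and 10116 in wild type. Those of the undifferentiated spermatogonia list (6 of 7 names with reads, Mir146a at 0 under that name) numbered 74563 RPM in the untreated Hen1 knockout and 99971 in wild type. Within it, Mir183, Mir96 and Mir182 had 28010, 11801 and 9335 reads in the knockout, against 75180, 33671 and 20528 in wild type. Mir21a, Mir221 and Mir222 went the other way, with 10492, 1696 and 1387 reads in the knockout, against 7680, 937 and 820. The part of the culture's makeup in the ratios of the members was not tested. Short 3′ ends were not commoner past 2-fold in any of 17 arms and were lower in 1 (Mir743-3p, ratio 0.498), against 9.72% and 10.6% of Mir-named arms.

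In the Mili knockout the members were close to wild type per microRNA read. Summed, they held 49.9% of the microRNA reads in the Mili knockout and 48.8% in wild type, a ratio of 1.02 (1.02 to 1.03). None of the 9 was past 2-fold, where 0.261% of all microRNA genes were higher and 34.7% lower (0.450% and 3.60% of Mir-named genes). Single genes lay between 0.839 for Mir881 (0.816 to 0.863) and 1.17 for Mir465c (1.15 to 1.18), with a median of 1.01, the same as for Mir-named genes. Per read of 18 to 35 nt the sum had a ratio of 1.82 and all microRNA reads 1.78. The fibroblast list stood at 16343 RPM in the Mili knockout and 10116 in wild type, and the undifferentiated spermatogonia list at 80394 RPM in the Mili knockout and 99971 in wild type. Per microRNA read Mir183, Mir96 and Mir182 of the latter list were lower in the knockout, while Mir21a, Mir221 and Mir222 were higher. The part of either list in these ratios was not tested. No arm of 17 passed 2-fold in short ends, against 4.25% higher and 12.3% lower among Mir-named arms.

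In the MILI immunoprecipitate the members were scarce, more so than other microRNAs. Summed, they had 48838 reads, against 677627 in untreated wild type, which was 47.8-fold lower per read of 18 to 35 nt (47.4 to 48.3), while Mir-named reads outside the X cluster were 24.2-fold lower. Per microRNA read the ratio was 0.536 (0.531 to 0.540). Of the 9 members 6 were at least 2-fold lower and none higher, where 9.62% of all microRNA genes were lower and 64.6% higher. Among Mir-named genes 20.7% were lower and 22.3% higher. When reads were limited to those that match 1 gene name, 3 members were at least 2-fold lower. The share of all genes was not counted with such reads.

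Mir880 was again the lowest at 0.192 (0.183 to 0.203), the fourth lowest of 188 Mir-named genes, and was 133-fold lower per read of 18 to 35 nt. Mir881 followed at 0.344 (0.314 to 0.378), then Mir463 at 0.395 (0.322 to 0.485), Mir743 at 0.432, Mir470 at 0.435 and Mir741 at 0.459. Mir878 at 0.864 (0.811 to 0.921), Mir871 at 0.717 and Mir465c at 0.688 were not past 2-fold. The members' median was 0.435, against 0.879 for Mir-named genes. Mir881 and Mir463, which had the highest NaIO4 ratios, were thus among the lower members here, while Mir880 was lowest in all 3 comparisons.

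The fibroblast list stood at 26854 RPM in the immunoprecipitate and 10116 in untreated wild type, and the undifferentiated spermatogonia list at 48773 RPM in the immunoprecipitate and 99971 in untreated wild type. Per microRNA read Mir183 and Mir96 of the latter list were lower, Mir182 was near wild type, and Mir21a, Mir221 and Mir222 were higher. The part of either list in the lower members was not tested. The remaining lists were small in every library. The pluripotent or early germ cell list (6 of 14 names with reads, the Mir302 genes and Mir367 at 0) ran between 1108 and 3907 RPM, and the meiotic list (4 of 5) between 951 and 2553. Blood (3 of 3), endothelium (1 of 2) and muscle markers (3 of 3) reached at most 870, 802 and 123. Short ends were at least 2-fold commoner in 3 of 15 arms and in none 2-fold rarer, against 30.2% and 11.0% of Mir-named arms. Those 3 were Mir470-3p, Mir878-3p and Mir465c-5p, with share ratios of 4.27, 2.07 and 2.01, of which Mir470-3p rests on 60 reads.

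Reads with up to 3 untemplated 3′ bases were left out of the exact counts. Together they amounted to 4.97% to 5.94% of the members' reads. Outside the X cluster the tailed share of Mir-named genes ran between 10.8% and 16.4%. Mir880-3p was almost free of them, at 0.467% in untreated wild type, and Mir741-3p had 3.60%. In untreated wild type they made up 26.2% of Mir465c-5p, 23.4% of Mir871-5p, 24.2% of Mir743-5p and 30.4% of Mir470-3p, all minor arms by read count. For Mir465c that rests on 3p reads, nearly all of which also match other gene names. The minor arms of Mir741, Mir881 and Mir878 had a smaller tailed share than the major arms, with 2.66% for Mir741-5p, 2.99% for Mir881-5p and 3.22% for Mir878-5p, against 3.78% for Mir881-3p and 5.15% for Mir878-3p.

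The added base was mostly a single T (U in the RNA) in Mir465c-5p, at 21.4% of reads, and in Mir871-5p, at 14.2%. In Mir871-3p a single C was commonest, at 3.74%. In Arabidopsis, loss of Hen1 is known to let small RNAs gain U tails. Here the tailed share of Mir465c-5p was 24.3% in the untreated Hen1 knockout and 26.2% in untreated wild type, and that of Mir871-5p 19.9% in the knockout and 23.4% in wild type. For Mir741-3p it was 3.01% in the knockout and 3.60% in wild type, for Mir871-3p 7.45% in the knockout and 7.73% in wild type, and for Mir880-3p 0.745% in the knockout and 0.467% in wild type. For Mir-named genes outside the X cluster the tailed share was 13.5% in the untreated Hen1 knockout and 12.5% in untreated wild type. Over all 17 member arms with reads in both libraries, the tailed share was higher in the Hen1 knockout in 7 and lower in 10. The intervals did not overlap in 1 of the higher arms, Mir880-3p, and in 6 of the lower ones. In Mir880-3p tails of 2 or 3 bases were 0.428% in the knockout and 0.0937% in wild type. Its single T tails were 0.147% in the knockout and 0.159% in wild type. Among the higher arms, Mir741-5p had 4.98% in the knockout and 2.66% in wild type, and Mir878-5p 4.51% in the knockout and 3.22% in wild type, from 12 tailed reads in each library for Mir741-5p and from 38 in the knockout and 52 in wild type for Mir878-5p. Tails of a single T were a larger share in the knockout in 5 arms and a smaller one in 12. Such counts of arms were not made for other Mir-named genes, so whether these are usual was not tested. With NaIO4 the tailed share of Mir465c-5p was 12.4% in the Hen1 knockout and 16.5% in wild type.

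Other genes of the X cluster with at least 200 reads in untreated wild type were Mir465, Mir465b, Mir743b, Mir883a, Mir883b and Mir471. The whole cluster held 45.9% of the microRNA reads in NaIO4-treated Hen1 knockout cells, 50.8% in untreated Hen1 knockout cells, 42.0% in wild type with NaIO4, 54.9% in the Mili knockout, 29.4% in the immunoprecipitate and 53.8% in untreated wild type. Their NaIO4 ratios per microRNA read ran between 0.867 for Mir883b and 1.14 for Mir471 in the Hen1 knockout, and between 0.714 for Mir883b and 1.32 for Mir471 in wild type. None of the 6 was as low as Mir880. In the immunoprecipitate they ran between 0.417 for Mir471 and 0.844 for Mir743b. Mir742 had 99 reads in untreated wild type, and Mir201, Mir547, Mir509 and Mir465d had 0 to 1 there.

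The 5 genes outside the cluster whose course over the libraries lay nearest that of the summed members were Mir93, Mir467c, Mir140, Mir128 and Mir872. Nearness was the root mean square difference in log2 ratio over 5 libraries against untreated wild type, among 311 genes, and came to 0.183, 0.202, 0.214, 0.219 and 0.262 in that order. For Mir93 the ratios were 0.912 in NaIO4-treated Hen1 knockout cells, 0.999 in untreated Hen1 knockout cells, 0.908 in wild type with NaIO4, 0.947 for the Mili knockout and 0.576 for the MILI precipitate. The summed members had 0.809 for NaIO4-treated Hen1 knockout cells, 0.935 for untreated Hen1 knockout cells, 0.724 for wild type with NaIO4, 1.02 for the Mili knockout and 0.536 for the precipitate. All 5 ratios share the untreated wild type library.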

How the data were processed

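Small RNAs of 6 libraries were analysed, 1 per group. The deposited values are raw counts of reads per distinct sequence, collapsed by the authors, with no header and no scaling. Per the submitters' processing notes, Bowtie was a tool and mm10 the build. Adapter trimming is not given in the sources used here. Depth per library and its precision are in the report.

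Reads of 18 to 26 nt were matched exactly and in sense to the 2202 GENCODE M21 microRNA entries. A read matching several gene names counted for each, but was counted 1 time in sums. The Mir5099 locus was left out of the microRNA total. Arms were set from the mature sequences of RefSeq (GRCm38.p6), whose hairpins equalled all 10 member entries. Ratios had 0.5 added to each count. Genes were compared when a pair of libraries held 200 reads or more in sum, by a 2-fold rule with no test. Mir-named genes include entries named mmu-mir. Tails were up to 3 bases after an exact match of at least 18 nt. Counting was tested on simulated data.

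All 9 members were named, with the other X cluster genes of at least 200 reads in untreated wild type and the 5 genes nearest the summed members. Members, lists and rules were chosen with earlier results of these data known. The short end rule was chosen after seeing the data. Alternatives changed the scaling, read length, multiple matches, tails and read minimum. Scripts ran on scipy 1.17.1, pandas 2.3.3, numpy 2.4.6, matplotlib 3.10.9 and Python 3.11.15.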

Additional observations from a re-analysis of the deposited data

Results flagged for a closer look

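Reads of 27 to 35 nt that match the members lie outside the microRNA size range. They numbered 73 in the Mili knockout and 76 in untreated wild type, a ratio of 1.46 (95% interval 1.06 to 2.02) per read of 18 to 35 nt. This is noted because these reads enter no comparison and the interval lies above 1. The members' own reads of 18 to 26 nt had a ratio of 1.82 on the same scale.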

How the results depend on the processing

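No paired analysis was possible because each group has 1 library and the labels give no replicate numbers. The summed ratios are given in the order NaIO4 in the Hen1 knockout, NaIO4 in wild type, ratio of these ratios, Hen1 knockout, Mili knockout and immunoprecipitate, with 0.865, 0.724, 1.19, 0.935, 1.02 and 0.536 as reported. Scaling to reads of 18 to 35 nt gave 0.281, 0.0500, 5.63, 0.354, 1.82 and 0.0209. Scaling by the median of all microRNA genes, many of them predicted entries, gave 0.577, 0.0832, 6.94, 0.597, 1.15 and 0.0991. Only reads that match 1 gene name gave 0.926, 0.838, 1.11, 0.945, 1.01 and 0.664. Reads of 20 to 24 nt gave 0.896 and 0.761 for NaIO4, 0.941 for the Hen1 knockout and 0.602 for the immunoprecipitate. Tailed reads included, the values were 0.850 and 0.716 for NaIO4, 0.923, 1.02 and 0.504 for the other 3. Among alternatives added after seeing the data, scaling to Mir-named reads outside the X cluster gave 0.891 for NaIO4 in the Hen1 knockout, 1.24 for the ratio of ratios, 0.901, 1.03 and 0.506. The median of Mir-named genes gave 0.882 and 0.747 for NaIO4, 0.794, 1.01 and 0.609.

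Per read of 18 to 35 nt, members at least 2-fold lower numbered 9 in both NaIO4 comparisons, in untreated Hen1 knockout cells and in the immunoprecipitate. All microRNA reads were themselves lower there. The folds were 3.07 with NaIO4 in the Hen1 knockout, 14.5 with NaIO4 in wild type, 2.64 in untreated Hen1 knockout cells and 25.6 in the immunoprecipitate. On that scale 1 was higher in the Mili knockout, where all microRNA reads had a ratio of 1.78. By the median of all genes 9 were lower in NaIO4-treated wild type, 9 in the immunoprecipitate and 1 in untreated Hen1 knockout cells. With reads that match 1 gene name 1 was higher with NaIO4 in wild type and 3 were lower in the immunoprecipitate. The share of all genes past 2-fold was not counted under these alternatives, so these member counts have no background. With ends at least 1 nt short, an alternative also added after seeing the data, 1 Hen1 knockout arm and 3 wild type arms were past 2-fold, against 11 each. Under that alternative 30 of 120 Mir-named arms in the Hen1 knockout and 42 of 158 in wild type were at least 2-fold higher. Of 45 single ratios, 45 kept their side of 1 with reads of 20 to 24 nt, 44 with tails, 42 under both Mir-named scalings, 40 with reads of 1 gene name, 33 by the median of all genes and 31 per read of 18 to 35 nt. Depth limits Mir463, with 96 reads in the immunoprecipitate.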
